A study of Mus musculus with 6 samples.

Results

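The 10 genes described here form the core of the circadian clock: the period genes Per1, Per2 and Per3, the cryptochrome genes Cry1 and Cry2, the activator genes Arntl (Bmal1) and Clock, the nuclear receptor genes Nr1d1 and Nr1d2, and the output gene Dbp. They were picked by name from 19938 genes that could be measured on the arrays. Each of the 10 is read by 1 probe set. RNA of adult forebrain cortex was compared between 3 mice labelled Dicer KO and 3 control mice, all on the C57BL/6 background, with 1 Affymetrix whole-transcript array per animal. The arrays labelled Dicer KO carry the genotype CamKII-Cre/+;Dicer flox/flox. The controls are of 2 kinds, one with the Cre transgene and a single floxed allele (CamKII-Cre/+;Dicer flox/+) and one without Cre (+/+;Dicer flox/flox). The labels do not tell which control has which genotype, so every animal has at least 1 floxed Dicer allele and some controls may also carry Cre. The CamKII promoter drives Cre in excitatory forebrain neurons, and other cells of the cortex keep Dicer. The labels give neither the age beyond adult nor the time of day at which tissue was taken.

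The clock of mammalian cells is a transcriptional loop. The proteins CLOCK and BMAL1 bind E-box sequences as a pair and switch on the Per and Cry genes, whose proteins return to the nucleus and silence that pair, so that the transcripts rise and fall daily. In a coupled loop, the REV-ERB receptors encoded by Nr1d1 and Nr1d2 repress Arntl and Clock, and Dbp activates genes that carry D-box sequences. In mouse brain Arntl transcripts peak at the opposite phase of the day to those of Dbp, and Per1 is in addition induced by neuronal activity and by glucocorticoids. Dicer cuts microRNA precursors into mature microRNAs, and cultured mouse cells without Dicer are reported to run with a shorter clock period.

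Median log2 values of the 6 arrays lay from 7.13 to 7.22, and pairs of arrays correlated at r of 0.9749 or more over probe sets, which are no replicates of each other. Dicer1 itself had log2 values of 9.58, 9.68 and 9.46 in arrays labelled Dicer KO 1, 2 and 3, against 9.17, 9.21 and 9.18 in the control arrays. It was therefore not lower but higher in every labelled KO array, by 0.39 ± 0.087 on the log2 scale (SE; limma adjusted p = 0.102). Its cause was not tested, and each direction given here is that of the arrays as labelled. The Y-linked gene Eif2s3y was high in arrays 1 and 3 of the labelled KO group and array 2 of the controls, and low in the rest, so the sexes were unequally divided between the groups. As a check of the tissue, 11 of 12 listed excitatory neuron markers were measured, with a summed level between 14.18 and 14.42 in the labelled KO arrays and between 14.43 and 14.57 in the controls (log2). Control array 1 stood apart in 8 olfactory bulb genes, whose mean lay 0.91 above the control mean, against -0.51 to -0.39 in the other 5 arrays. In bulk tissue like this, fewer cells of a type and less RNA per cell cannot be told apart.

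None of the 10 clock genes passed the threshold over all genes, an adjusted p under 0.05 in limma's test with Benjamini-Hochberg adjustment, where 0.281% of all genes passed. The smallest adjusted p among them was 0.117. At an unadjusted p under 0.05, 5 of the 10 lay higher in the labelled KO arrays (Per1, Per3, Cry1, Cry2 and Nr1d1) and 0 were lower, beside 7.01% of all genes higher and 7.39% lower. All 10 were brighter than the median gene. In a fit of the 9969 brighter genes alone, 5 of the 10 were higher at that p, beside 10.6% of those genes. In 5 of the 10 (Per1, Per3, Cry1, Cry2 and Clock) every labelled KO array lay above every control array, which 9.30% of all genes did, and in 0 it lay below every control array, which 11.0% of all genes did. The differences were above 0 in 8 of the 10, against 47.3% of all genes, and their median was 0.22 on the log2 scale against -0.0092 over all genes. Members of the loop share regulators, so the 10 are not independent of each other. Per2, Arntl and Dbp differed by less than their standard errors. When 1 array at a time was left out, 4 or 5 of the 10 were higher at an unadjusted p under 0.05, beside 4.59% to 8.24% of all genes. Per1, Per3, Cry1 and Cry2 were among them in each of these 6 fits, and Nr1d1 was not without labelled KO array 3 or control array 1 or 2.

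**Figure D1:**
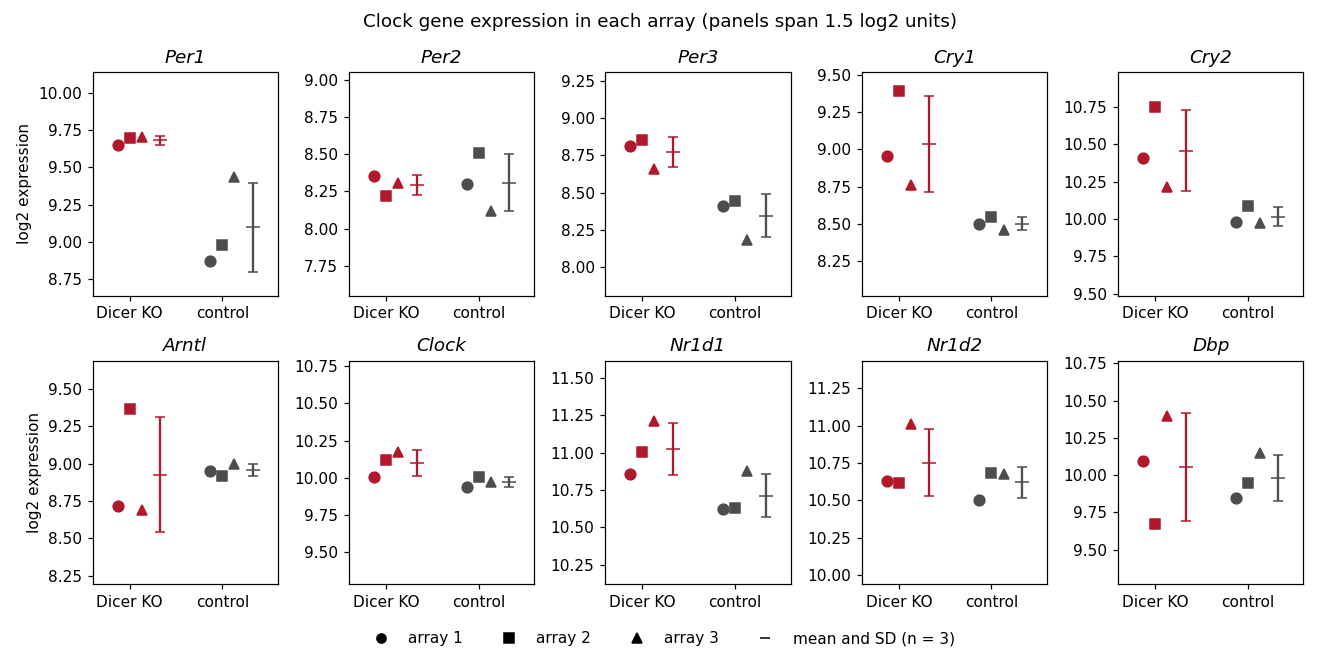
Log2 expression of the 10 clock genes in each array, with labelled Dicer KO arrays in red at the left and control arrays in grey at the right of each panel. Symbols mark array numbers, and bars show the mean and SD of 3 arrays. Per1, Per3, Cry1 and Cry2 lie apart between the groups, Clock does so by 0.0011, and Arntl and Dbp are spread more widely in the labelled KO arrays.

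The period genes encode the repressors whose build-up and decay time the loop. Per1 read 9.65, 9.70 and 9.70 in labelled KO arrays 1, 2 and 3, against 8.87, 8.98 and 9.44 in control arrays 1, 2 and 3. The labelled KO arrays lay close together and above all controls, and control array 3 was well above the other controls. The difference was 0.58 ± 0.14 on the log2 scale (SE), 1.5-fold, with an interval at 95% of 0.27 to 0.90. It missed the threshold (adjusted p = 0.118 in limma's test over all genes). It was 0.75 without control array 3 and 0.47 without control array 1. Per1 passed in 2 of 16 alternatives: with array weights, where the adjusted p was 0.0137, and without array 3 of both groups, where the difference was 0.74 and the adjusted p was 0.0391. Of all 19938 genes, 1116 and 89 passed in these 2 fits, against 56 with all arrays weighted equally.

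Per3, a period gene that mice can lack with little change in rhythm, read 8.81, 8.85 and 8.66 in labelled KO arrays 1, 2 and 3, against 8.41, 8.45 and 8.18 in control arrays 1, 2 and 3. The groups did not overlap, and array 3 was the lowest of its group in both. The difference was 0.43 ± 0.10 (SE), 1.35-fold, with an adjusted p of 0.117 in limma's test. Per2, whose protein is needed for a stable rhythm in mice, read 8.35, 8.22 and 8.31 in the labelled KO arrays, against 8.30, 8.51 and 8.12 in the controls. All 3 labelled KO values lay inside the control range, and the difference was -0.015 ± 0.11 (SE; limma adjusted p = 0.970) with an interval of -0.26 to 0.23. Taken within each array, Per3 minus Per2 was 0.46, 0.63 and 0.36 in the labelled KO arrays, against 0.11, -0.06 and 0.06 in the controls. Per1 minus Per2 was 1.29, 1.47 and 1.40 in the labelled KO arrays, against 0.57, 0.48 and 1.32 in the controls. The first contrast did not overlap between the groups, and in the second control array 3 lay among the labelled KO arrays. These pairs were picked with their values in view and were not tested, and offsets between probe sets make only the change of such a contrast meaningful.

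Both cryptochromes, the partners of the period proteins that block CLOCK and BMAL1, were higher in every labelled KO array than in any control array. Cry1 read 8.96, 9.39 and 8.76 in labelled KO arrays 1, 2 and 3, against 8.50, 8.55 and 8.46 in the control arrays. Cry2 read 10.41, 10.75 and 10.21 in the labelled KO arrays, against 9.98, 10.09 and 9.97 in the controls. The order of the 3 labelled KO arrays was the same for both genes, with array 2 highest and array 3 lowest. Cry1 differed by 0.54 ± 0.15 (SE), 1.45-fold (limma adjusted p = 0.153), and Cry2 by 0.44 ± 0.13 (SE), 1.36-fold (limma adjusted p = 0.184). Labelled KO array 2 set much of the size: without it the differences were 0.36 for Cry1 and 0.30 for Cry2, still with no overlap. With array weights both passed, with adjusted p of 0.0346 for Cry1 and 0.0415 for Cry2, and so did Per3 (adjusted p = 0.0189). In that fit 1116 of all 19938 genes passed.

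Because these 4 genes were the ones that lay apart between the groups in the repressor arm, the 250 bases before their start sites are shown, from RefSeq promoters of build GRCm38.p6, for their E-box, E-prime box and D-box letters. The motifs searched on both strands were the E-box CACGTG, the E-prime box CACGTT, the D-box TTANGTAA, the CRE TGACGTCA and the RORE by name, and none of these matches overlap. Capitals mark the matches, and a match is a description of letters, not of a bound site. The sequences run 5′ to 3′ on the gene's strand: Per1 at its first of 2 start sites (chr11:69098699-69098948, plus strand), Per3 (chr4:151044666-151044915, minus strand), Cry1 (chr10:85185055-85185304, minus strand) and Cry2 (chr2:92434070-92434319, minus strand).
Per1: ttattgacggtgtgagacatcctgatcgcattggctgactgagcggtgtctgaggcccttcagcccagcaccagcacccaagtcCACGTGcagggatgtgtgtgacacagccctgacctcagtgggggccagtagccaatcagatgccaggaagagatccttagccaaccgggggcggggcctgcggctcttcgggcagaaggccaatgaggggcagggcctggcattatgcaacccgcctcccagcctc
Per3: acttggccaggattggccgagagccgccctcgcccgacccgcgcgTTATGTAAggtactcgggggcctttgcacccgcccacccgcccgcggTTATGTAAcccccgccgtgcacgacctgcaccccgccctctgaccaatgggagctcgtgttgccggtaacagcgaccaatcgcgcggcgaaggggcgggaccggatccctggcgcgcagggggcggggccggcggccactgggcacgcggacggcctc
Cry1: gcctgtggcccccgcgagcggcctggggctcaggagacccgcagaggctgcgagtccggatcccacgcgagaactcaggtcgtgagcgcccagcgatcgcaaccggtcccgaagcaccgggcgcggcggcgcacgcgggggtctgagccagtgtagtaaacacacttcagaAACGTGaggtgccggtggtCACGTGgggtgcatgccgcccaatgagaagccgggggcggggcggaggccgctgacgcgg
Cry2: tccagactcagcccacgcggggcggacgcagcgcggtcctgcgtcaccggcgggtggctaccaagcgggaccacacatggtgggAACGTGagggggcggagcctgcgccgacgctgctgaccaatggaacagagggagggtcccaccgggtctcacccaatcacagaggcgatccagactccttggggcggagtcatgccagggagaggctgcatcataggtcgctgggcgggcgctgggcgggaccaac
Per1 and Cry1 hold 1 E-box each, as do 6.02% of 32851 mouse promoter windows of this length. Cry1 and Cry2 hold 1 E-prime box each, and Nr1d1 holds another (3.85% of windows). Per3 holds 2 D-boxes, a motif found in 2.06% of windows. No letters of the CRE (1.55% of windows) or the RORE (0.35%) were found in these 250 bases of the 9 members with an entry, which says nothing about other parts of these genes. When the 50 bases after the start were included, Arntl at its second of 2 start sites held 1 RORE, as do 0.435% of promoters.

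Arntl and Clock encode the pair of activators that drive the loop. Arntl read 8.72, 9.37 and 8.69 in labelled KO arrays 1, 2 and 3, against 8.95, 8.92 and 8.998 in the controls. Labelled KO array 2 was above all controls, and labelled KO arrays 1 and 3 were below all of them. The mean difference was therefore -0.030 ± 0.17 (SE; limma adjusted p = 0.960), with an interval of -0.41 to 0.35. It was -0.25 without labelled KO array 2 (unadjusted p = 0.0255, limma adjusted p = 0.374), and 0.075 or 0.087 without labelled KO array 1 or 3. Clock, which encodes the partner of BMAL1, read 10.006, 10.12 and 10.18 in the labelled KO arrays, against 9.94, 10.005 and 9.97 in the controls. The groups did not overlap, but by 0.0011 only, and the difference of 0.13 ± 0.084 (SE) had an unadjusted p of 0.164 (limma adjusted p = 0.544).

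Nr1d1, the REV-ERB alpha receptor that represses Arntl, read 10.86, 11.004 and 11.21 in labelled KO arrays 1, 2 and 3, against 10.63, 10.63 and 10.88 in the controls. Labelled KO array 1 lay just under control array 3, so the groups overlapped, and the difference was 0.31 ± 0.12 (SE), 1.24-fold (limma unadjusted p = 0.0250, adjusted p = 0.265). Nr1d2, the REV-ERB beta receptor, read 10.63, 10.62 and 11.01 in the labelled KO arrays, against 10.50, 10.68 and 10.68 in the controls. Only labelled KO array 3 stood above the controls, and without it the difference of 0.13 ± 0.12 (SE) was 0.0034. Dbp, a transcription factor of the PAR bZIP family, read 10.09, 9.67 and 10.40 in the labelled KO arrays, against 9.85, 9.95 and 10.15 in the controls. Labelled KO array 3 was the highest of all 6 arrays and labelled KO array 2 the lowest. The mean difference of Dbp was 0.072 ± 0.17 (SE; limma adjusted p = 0.892), with an interval of -0.32 to 0.46, and it was 0.26 when labelled KO array 2 was left out and -0.099 when labelled KO array 3 was.

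The labelled KO arrays thus differed among themselves in the clock genes. The SD over 3 arrays was 0.38 in the labelled KO arrays against 0.039 in the controls for Arntl, 0.32 against 0.043 for Cry1, 0.27 against 0.064 for Cry2 and 0.36 against 0.15 for Dbp. Over all genes the median SD was 0.11 in both groups. The SD was higher in the labelled KO arrays for 7 of the 10 genes and lower for the 3 period genes, with 0.030 against 0.30 for Per1. These spreads rest on 3 arrays a group and were not tested.

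Labelled KO array 2 differed most in pattern, with Arntl, Cry1 and Cry2 at their highest of the 6 arrays and Dbp at its lowest. Dbp minus Arntl, a contrast within each array that no scaling of the array can change, was 1.38, 0.30 and 1.71 in labelled KO arrays 1, 2 and 3, against 0.90, 1.03 and 1.15 in the controls. Labelled KO arrays 1 and 3 lay above all controls and labelled KO array 2 below all of them. The means were 1.13 ± 0.73 in the labelled KO arrays and 1.03 ± 0.13 in the controls (SD, n = 3 each), a difference of 0.10 (two-sided exact permutation test, p = 0.9, where the smallest possible p is 0.1). The difference was 0.52 when labelled KO array 2 was left out and -0.19 when labelled KO array 3 was. Nr1d1 minus Arntl showed the same order, at 2.14, 1.63 and 2.52 in the labelled KO arrays, against 1.68, 1.71 and 1.88 in the controls. Both contrasts subtract the same Arntl values, so they are not independent. Nr1d1 itself was not low in labelled KO array 2, where its 11.004 lay above all controls, and the high Arntl value there set the low contrast. Labelled KO array 2 was also the array with the most RNA of Ttr, the choroid plexus gene for transthyretin, at 10.95 against 9.85 and 8.30 in labelled KO arrays 1 and 3 and 8.18 to 8.73 in the controls. Of the other 7 choroid plexus markers, Cldn2 alone was also highest there, and Kl and Aqp1 had their lowest of the 6 arrays there, at 6.32 and 6.46. Kcnj13 read 7.56, 7.57 and 7.62 in the labelled KO arrays, against 7.03, 7.47 and 7.38 in the controls (0.29 ± 0.12, SE). It was the 1 marker of the 8 whose groups did not overlap, beside 9.30% of all genes. Over the 8 markers the median difference was 0.014, and the summed level was 9.92 to 11.34 in the labelled KO arrays against 9.83 to 9.97 in the controls (log2). The part of dissection in its clock pattern was not tested. It was also the 1 labelled KO array in which Eif2s3y was low, at 4.25. With sex as a covariate Arntl stood at 0.090 and Dbp at -0.015, neither past the threshold. In that fit Per1, Per3, Cry1, Cry2 and Nr1d1 stayed higher at an unadjusted p under 0.05, beside 5.85% of all genes.

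**Figure D2:**
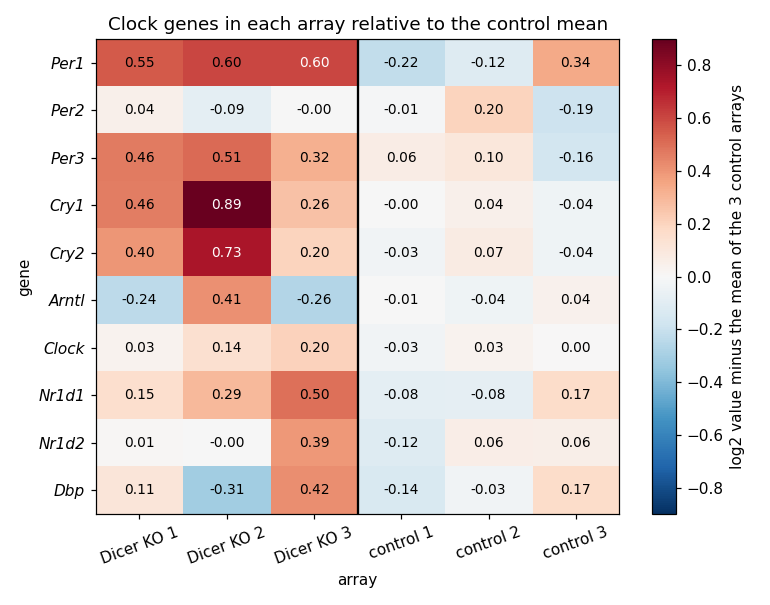
Log2 value of each clock gene (rows) in each array (columns) minus the mean of the 3 control arrays, with labelled Dicer KO arrays at the left of the line and controls at the right. Per1, Per3, Cry1, Cry2, Clock and Nr1d1 are above the control mean in all 3 labelled KO arrays. Arntl is at 0.41 in labelled KO array 2 and at -0.24 and -0.26 in labelled KO arrays 1 and 3, and Dbp runs the other way.

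Beyond the 10 genes, 9 of 11 listed transcription factors of the same loop were measured, and the other two were not analysed here. None passed over all genes, 8 of the 9 had differences above 0, and their median was 0.15. Bhlhe41 (DEC2), a repressor that competes at E-boxes, read 9.64, 9.37 and 9.87 in labelled KO arrays 1, 2 and 3, against 9.11, 9.30 and 9.22 in the controls. No array overlapped, and the difference was 0.42 ± 0.13 (SE; limma adjusted p = 0.193). Its paralogue Bhlhe40 (DEC1), which is also induced by activity, was at 0.079 ± 0.14 (SE). The PAR bZIP genes Hlf and Tef, relatives of Dbp that bind the same D-box, were at 0.20 ± 0.089 and 0.12 ± 0.084 (SE), and of these only Hlf had groups that did not overlap. Nfil3, the repressor that opposes them at D-boxes, was the 1 gene below 0, at -0.25 ± 0.12 (SE; limma adjusted p = 0.385). Rora and Rorb, receptors that activate Arntl in competition with the REV-ERB proteins, were at 0.16 ± 0.10 and 0.15 ± 0.12 (SE). Ciart, a repressor of CLOCK and BMAL1, was at 0.23 ± 0.17, and Arntl2, a paralogue of Arntl, at 0.062 ± 0.25 (SE).

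**Figure D3:**
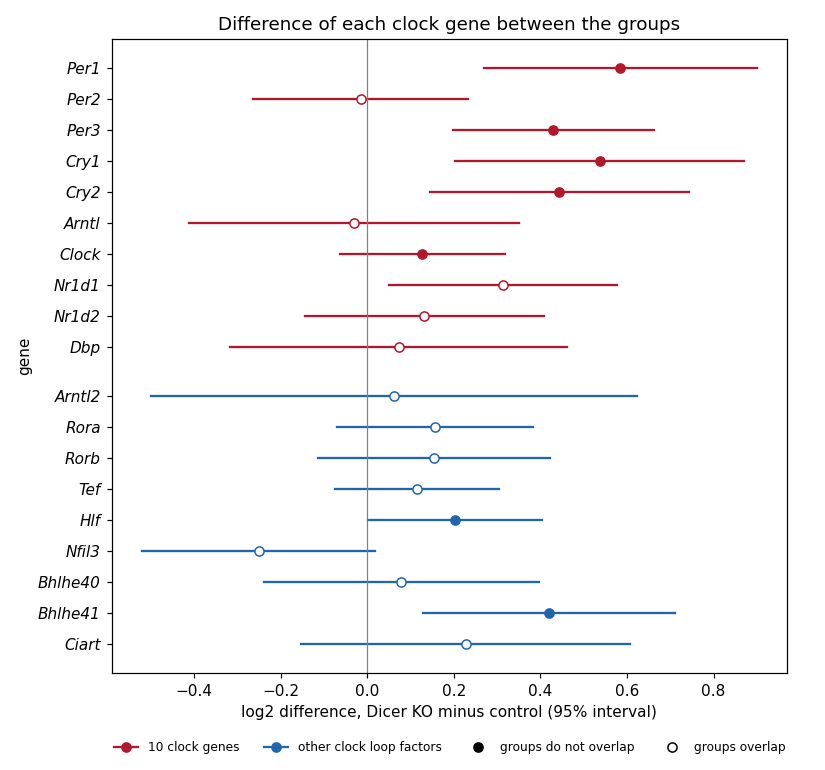
Difference in log2 expression, labelled Dicer KO minus control, with its 95% interval, for the 10 clock genes in red and 9 other factors of the loop in blue. Filled points mark genes whose groups do not overlap. Before adjustment over all genes, the intervals of Per1, Per3, Cry1, Cry2, Nr1d1, Bhlhe41 and, narrowly, Hlf lie above 0.

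Clock proteins are themselves modified by enzymes that set their stability. Of 15 measured clock protein kinases, phosphatases and ubiquitin ligases, 0 passed over all genes, 6 were above 0 and 9 below, and the median was -0.048. The groups did not overlap in 6 of the 15, with 5 lower and 1 higher in the labelled KO arrays, beside 11.0% and 9.30% of all genes. The casein kinase genes Csnk1d and Csnk1e, whose products mark period proteins for destruction, were at -0.067 ± 0.11 and 0.074 ± 0.10 (SE). Btrc, the ubiquitin ligase subunit that recognises period proteins, was at -0.22 ± 0.084 (SE; limma adjusted p = 0.290), and Ppp1ca, a phosphatase catalytic subunit, at -0.20 ± 0.093. Fbxl21, an F-box gene related to cryptochrome turnover, was at 0.028 ± 0.12 (SE). Usp2, a deubiquitinase whose transcript is itself a clock output, was at 0.21 ± 0.088 (SE; adjusted p = 0.329).

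Of 15 measured clock cofactors, 13 had differences above 0 and 0 passed, with a median of 0.14. The groups did not overlap in 5 of these 15, all higher in the labelled KO arrays, beside 9.30% of all genes. The histone acetyltransferase gene Kat2b was at 0.33 ± 0.13, the histone methyltransferase gene Kmt2a at 0.32 ± 0.14 and the CLOCK-BMAL1 cofactor gene Kdm5a at 0.29 ± 0.094 (SE). Cipc, which encodes an inhibitor of CLOCK, was at -0.00047 ± 0.083 (SE). Among 16 listed clock output genes, 11 were above 0 and 0 passed, with a median of 0.16. This list shares genes with others, so their counts are not independent. Tef, Hlf, Nfil3, Bhlhe41 and Ciart are also among the loop factors above, Usp2 among the enzymes, and some others among the glucocorticoid-responsive genes below. Lonrf3 read 8.46, 8.50 and 8.56 in labelled KO arrays 1, 2 and 3, against 7.93, 8.13 and 8.10 in the controls, with no overlap, and was at 0.45 ± 0.089 (SE; limma adjusted p = 0.0780). Wee1, a cell cycle kinase gene with E-boxes, went the other way at -0.27 ± 0.10, Nampt, an enzyme of NAD synthesis, was at 0.26 ± 0.13, and Pdk4, a mitochondrial kinase gene, was at 0.50 ± 0.27 (SE).

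Per1 also answers to activity, glucocorticoids and, with other clock genes, body temperature, so the genes of these responses are given beside it. The 18 immediate early genes had a median difference of -0.41, with 16 of 18 below 0 and 0 past the threshold. Their array means were -0.51, -0.42 and -0.10 in labelled KO arrays 1, 2 and 3, against -0.34, -0.33 and 0.68 in control arrays 1, 2 and 3, relative to the control mean. Control array 3 was thus the highest, and it was also the control with the highest Per1. Arc read 8.73, 8.90 and 9.38 in the labelled KO arrays, against 9.62, 9.57 and 10.80 in the controls, a difference of -0.996 ± 0.31 (SE; limma adjusted p = 0.196). Npas4, induced by calcium entry, was at -0.79 ± 0.35 and Egr3, a zinc finger factor, at -0.54 ± 0.094 (SE; adjusted p = 0.0590). The groups did not overlap in 3 of the 18, Arc, Egr3 and the AP-1 gene Fosl2, all lower in the labelled KO arrays, beside 11.0% of all genes. The part of neuronal activity in the Per1 values was not tested.

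All 13 measured glucocorticoid-responsive genes had differences above 0, with a median of 0.19 and 0 past the threshold. Their array means were 0.35, 0.22 and 0.13 in labelled KO arrays 1, 2 and 3, against -0.084, -0.011 and 0.096 in the controls, so the means did not overlap. Gene by gene the groups did not overlap in 2 of the 13, both higher in the labelled KO arrays, beside 9.30% of all genes. Sgk1, a kinase gene, read 10.19, 10.18 and 10.03 in the labelled KO arrays, against 9.57, 9.42 and 10.13 in the controls, a difference of 0.43 ± 0.17 (SE; limma adjusted p = 0.291). Control array 3 overlapped the labelled KO arrays in Sgk1, as it came nearest to them in Per1. Mt1, a metallothionein gene, was at 0.35 ± 0.11 and Pdk4, a member of this list too, at 0.50 ± 0.27 (SE). The part of glucocorticoid signalling in the Per1 difference was not tested.

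Of 9 measured temperature-responsive genes 0 passed, 2 were above 0 and 7 below. Cirbp, the cold-inducible RNA-binding protein, whose transcript follows the daily temperature cycle in mice, read 11.23, 11.48 and 10.21 in labelled KO arrays 1, 2 and 3, against 10.23, 10.39 and 10.08 in the controls. Its relative Rbm3 read 12.20, 12.27 and 11.27 in the labelled KO arrays, against 11.52, 11.53 and 11.13 in the controls. In both genes labelled KO arrays 1 and 2 stood above every control and labelled KO array 3 did not. The order of the labelled KO arrays (2, 1, 3) was that of Cry1, Cry2, Per3 and Arntl. Genes outside this list, such as Camk2a, Csnk1d and Csnk1e, had that order too, and its share over all genes was not counted. Cirbp was at 0.74 ± 0.28 (SE; limma adjusted p = 0.269) and Rbm3 at 0.52 ± 0.25 (SE; adjusted p = 0.385). The heat shock gene Hsph1 was lower in all labelled KO arrays, at 10.98, 10.52 and 11.36 against 11.67, 11.77 and 11.90 in the controls, a difference of -0.83 ± 0.19 (SE; adjusted p = 0.102). Time of day and body temperature at collection are not in the labels, and their part in the clock differences was not tested.

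Some cell type markers and some of the clock genes were highest in the same labelled KO array. The 9 measured of 10 oligodendrocyte and myelin markers averaged 0.22, -0.19 and 0.44 over the list in labelled KO arrays 1, 2 and 3, against -0.22, -0.23 and 0.45 in the controls, with a summed level of 13.07 to 13.61 against 13.02 to 13.60 (log2). As for Dbp, array 3 was the highest of each group and labelled KO array 2 the lowest of the labelled KO arrays, and the part of these cells in the Dbp values was not tested. Opalin, Mal and Ermn differed most, at 0.37 ± 0.25, 0.26 ± 0.18 and 0.23 ± 0.36 (SE). The 10 astrocyte markers averaged 0.17, 0.041 and 0.54 in the labelled KO arrays, against -0.091, 0.010 and 0.081 in the controls, with a summed level of 14.12 to 14.46 against 14.02 to 14.12. The 10 microglia markers averaged -0.086, -0.27 and 0.56 in the labelled KO arrays, against -0.14, -0.031 and 0.17 in the controls, with a summed level of 11.61 to 12.62 against 11.73 to 12.06. Labelled KO array 3 was the highest labelled KO array in astrocyte, myelin, microglia and striatal markers. It was also the highest of all 6 arrays in Clock, Nr1d1, Nr1d2 and Dbp. In Per1 it was highest by a small margin only, at 9.701 against 9.696 in labelled KO array 2. The astrocyte gene Gfap was at 1.07 ± 0.33, Gjb6 at 0.48 ± 0.13 and Gja1 at 0.44 ± 0.12 (SE), none past the threshold. The 8 measured striatal markers averaged 0.13, 0.021 and 0.70 over the list in the labelled KO arrays, against 0.0019, -0.11 and 0.11 in the controls. The groups did not overlap in 5 of the 10 astrocyte and 4 of the 8 striatal markers, all higher, beside 9.30% of all genes. Shares like that of the clock genes were thus seen in these lists too, with median differences of 0.19 and 0.37. Among microglia markers 1 was higher and 1 lower without overlap, and among myelin markers 0. Per3, Cry1, Cry2 and Arntl had their lowest labelled KO value in array 3. The part of these cell types in the clock differences was not tested. Excitatory neuron markers averaged -0.076, -0.11 and -0.087 in the labelled KO arrays, against -0.048, 0.041 and 0.0068 in the controls. Nrgn, the postsynaptic protein neurogranin, fell by 0.60 ± 0.088 (SE; limma adjusted p = 0.0413) and was the only gene of the companion lists past the threshold. No gene at all passed when any 1 array other than labelled KO array 3 was left out (2197 to 2532 genes at an unadjusted p under 0.05). Neurod6, a transcription factor of these neurons, was at -0.45 ± 0.15 and Camk2a, whose promoter drives Cre here, at -0.16 ± 0.13 (SE). The 11 measured suprachiasmatic and hypothalamic markers had a median difference of -0.057 and 0 past the threshold.

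**Figure D4:**
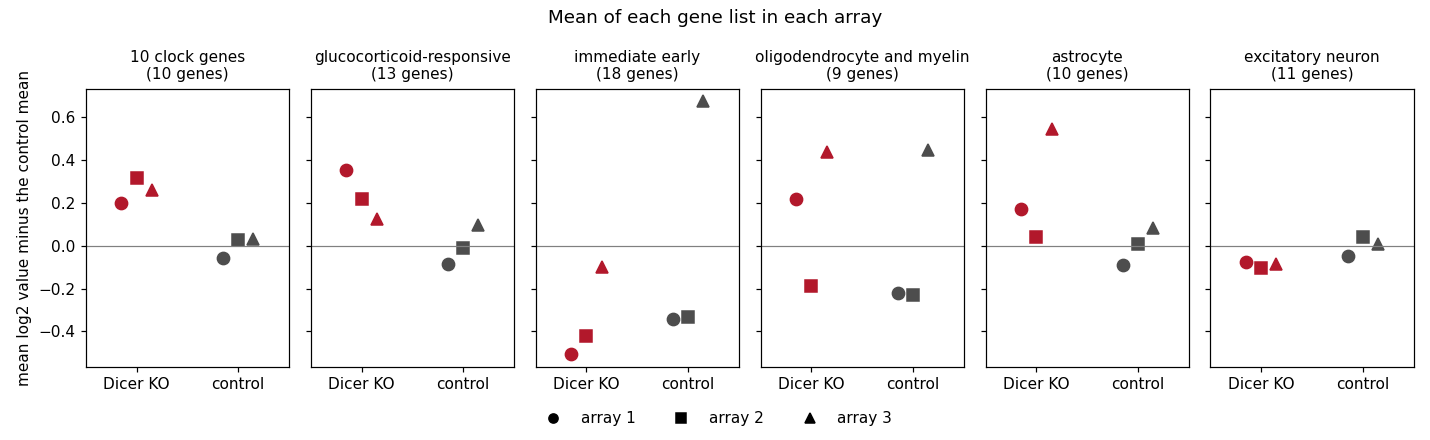
Mean log2 value of each gene list in each array minus the control mean, with labelled Dicer KO arrays in red at the left and controls in grey at the right of each panel. The means of the 10 clock genes and the 13 glucocorticoid-responsive genes lie higher in all labelled KO arrays, though not each gene does. The excitatory neuron means lie lower in all of them. Control array 3 stands apart in the immediate early genes, and the myelin and astrocyte lists are highest in labelled KO array 3 among the labelled KO arrays.

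Mature microRNAs, the products of Dicer, were not measured by these arrays, whose probe sets for microRNA genes read precursor or host transcripts. Several are reported in mice or mouse cells to act on the clock: miR-219a and miR-132 in the suprachiasmatic nucleus, and miR-24, miR-29a and miR-30a on Per1 and Per2 transcripts. Their RefSeq mature sequences (GRCm38.p6) are given because Dicer makes them and they have been tied to these genes, with the seed, bases 2 to 8, in capitals.
miR-132-3p: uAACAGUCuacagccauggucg
miR-212-3p: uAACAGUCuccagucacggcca
miR-219a-5p: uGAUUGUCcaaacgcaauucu
miR-24-3p: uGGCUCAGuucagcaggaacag
miR-29a-3p: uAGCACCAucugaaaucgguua
miR-30a-5p: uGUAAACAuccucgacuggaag
The seed of miR-132-3p is shared by miR-212-3p, made from the same cluster, and the others differ. Of the 13 measured microRNA genes on this list, 6 were above 0 and 7 below, 0 passed, and the median was -0.00025. Mir30a read 6.43, 6.45 and 6.48 in labelled KO arrays 1, 2 and 3, against 6.17, 6.04 and 6.03 in the controls, with no overlap, a difference of 0.38 ± 0.082 (SE; limma adjusted p = 0.0927). Mir29a read 4.12, 6.09 and 5.36 in the labelled KO arrays, against 3.76, 4.06 and 3.80 in the controls, a difference of 1.31 ± 0.40 (SE; adjusted p = 0.191) at values far under the array medians. Mir29b-1, the third by size, was at 0.30 ± 0.12 (SE) from values near 3. Mir132 and Mir24-2 were at -0.0070 ± 0.086 and -0.00025 ± 0.12, and the 2 genes for miR-219a, Mir219a-1 and Mir219a-2, were at -0.16 ± 0.16 and 0.25 ± 0.12 (SE).

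Among 9968 other genes brighter than the median gene, those whose values over the 6 arrays were most like a clock gene's were listed by Pearson correlation, as a description over arrays that share the same group difference. For Per1 they were Golga2, Zbtb44 and Cpsf3, with r of 0.999, 0.998 and 0.998. For Dbp they were Nedd4, Bmpr1b and Ier5l, with r of 0.990, 0.990 and 0.989. For Arntl they were Polr3a, Commd4 and Gfus, with r of 0.989, 0.988 and 0.971. With so few arrays and so many genes, high correlations of this kind are common.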

How the data were processed

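The authors' deposited table holds 1 log2 value per probe set and array (35557 rows, 6 arrays). Per the submitters' processing notes RMA and limma were used. Neither the background step nor the log base is stated in the sources used here, and the range of 1.93 to 14.8 was read as log2. RMA shrinks differences of dim probe sets, and quantiles were nearly equal between arrays, so a shift of most genes would not show. The platform's probe table gave 21789 probe sets with 1 gene symbol, and 1621 with several were left out. Symbols of 21698 were updated through gene identifiers (GRCm38.p6). Where a gene had several probe sets, the brightest by mean was taken. Some listed genes were not analysed here.

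Groups come from the labels, which call the arrays biological replicates. All 19938 genes were fitted with limma 3.58.1 in R 4.3.3, with group as the only term, and p-values (two-sided) were adjusted across them by Benjamini-Hochberg at a threshold of 0.05. Errors are moderated standard errors. The steps were tested on simulated data. The number of arrays limits the precision, and no detection call was used.

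The clock genes, companion lists and alternatives were chosen with earlier results of these data known. By rule the text names the 10 clock genes, the other loop factors, 8 further clock genes (those measured), Dicer1, the genes nearest in pattern, and, in the companion lists described gene by gene, the members past the threshold and the 3 of largest difference. Mir132, Mir24-2, Mir219a-1 and Mir219a-2 were added after their values were seen. Kl, Cldn2 and Fosl2 were named for their order over the arrays.

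Alternatives were a replicate block on array numbers, leaving out each array, median centring, a second quantile normalization, brighter genes only, averaged probe sets, a trended and robust prior, array weights, sex as a covariate, no moderation, and leaving out array 3 of both groups.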

Additional observations from a re-analysis of the deposited data

How the results depend on the processing

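The number of clock genes past the threshold was 0 in 14 of 16 alternatives, 4 with array weights and 1 (Per1) without array 3 of both groups, where 0 were past it with all arrays weighted equally. Over all 19938 genes, 1116 passed with array weights and 89 without array 3 of both groups, against 56 with all arrays weighted equally. Per1, Per3, Cry1, Cry2, Clock, Nr1d1 and Nr1d2 were higher in the labelled KO arrays in every one of 16 alternatives. Some alternatives could not change a difference of these genes, so their direction there was fixed beforehand. They are the replicate block, brighter genes only, averaged probe sets, the trended and robust prior, and no moderation. The array weights gave labelled KO array 1 a weight of 5.18 and the others 0.426 to 1.20. Directions turned for 3 genes near 0: Arntl (-0.25 to 0.087 over the fits without 1 array, 0.090 with sex as a covariate and 0.11 without array 3 of both groups), Per2 (-0.11 to 0.084 without 1 array) and Dbp (-0.099 to 0.26 without 1 array, -0.015 with sex and -0.015 without array 3 of both groups). Without labelled KO array 2 Per2 was at 0.020, and without control array 2 at 0.084. Dbp minus Arntl ranged from -0.19 to 0.52 when 1 array was left out (-0.022 without labelled KO array 1) and was -0.12 without array 3 of both groups.

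Over all genes the count past the threshold, 56, was 215 with the replicate block, 178 among the brighter genes, 1116 with array weights, 89 without array 3 of both groups, 0 with sex as a covariate (2292 genes at an unadjusted p under 0.05), 0 with no moderation (2403 at an unadjusted p under 0.05), and 0 to 129 with 1 array left out. Among the companion lists, where 1 gene passed, the counts were 5 with the replicate block, 3 among the brighter genes, 16 with array weights, 7 without array 3 of both groups, 0 with sex, 0 with no moderation and 0 to 5 with 1 array left out. Array numbers were not taken as pairs, since the labels do not say that they pair animals. Deviations of same-numbered arrays from their group means correlated at 0.0895, 0.166 and 0.294, which does not settle whether they are pairs. For 2 of the 3 numbers both arrays correlated best with each other, which is a hint from the data and not from the design. With the replicate block 0 clock genes passed, but adjusted p in limma's test came nearer to the threshold. It was 0.054 for Per3, 0.060 for Per1, 0.071 for Cry1, 0.077 for Cry2 and 0.099 for Nr1d1, against 0.117 to 0.265 without the block. With no moderation 3 clock genes, not 5, were higher at an unadjusted p under 0.05, beside 5.4% of all genes. The cause of these changes was not tested.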
